A study of Bos taurus with 24 samples.

Results

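Adrenal glands of calves exposed to heat stress before birth (in utero heat stressed, IUHS) were compared between birth and weaning by RNA sequencing of bulk tissue. The 12 libraries were those labelled as heat stressed among the 24 of the series, 6 from calves at birth (day 0) and 6 from other calves at weaning (day 63). All were female, and each library came from the gland of 1 calf. The cooled calves of the series (in utero cooled, IUCL, 6 at each age) entered the model and served as the comparison for the change with age. Every heat-stressed calf carried the prenatal exposure at both ages, so the comparison shows the change with age among exposed calves. It does not show the effect of the exposure. The ages were sampled in different calves, so any difference in feeding, rearing, sampling date or processing between the groups cannot be told apart from age. The labels used here do not say how the heat load was applied or for how long.

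The adrenal gland has a cortex, which turns cholesterol into glucocorticoids, mineralocorticoids and adrenal androgens, and a medulla, whose chromaffin cells release catecholamines. In newborn mammals the cortex is being remodelled after a late fetal rise in cortisol output, and the immune and vascular cells of the gland change as the animal grows. A sample of whole gland holds all of these cells, and in such a sample fewer cells of a type and less RNA per cell cannot be told apart. The count files name genes by Ensembl identifier (ID) and pair none of them with a symbol. No table at hand held these identifiers, so the IDs are described by their values, and the labelled tissue could not be checked against the markers of its cell types.

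The 12 libraries held from 12261651 to 17580049 counts and detected from 17167 to 19010 IDs with at least 1 count. The difference in mean total counts, weaning minus birth, was -1157540 and within the spread between calves (exact permutation p = 0.229, two-sided, n = 6 per age). The 10 most abundant IDs took 6.998% ± 0.872 of the counts at birth and 7.44% ± 0.742 at weaning (SD, n = 6; exact permutation p = 0.361, adjusted 0.489 over 2 shares). The 100 most abundant took 18.7% ± 1.19 and 19.2% ± 1.61 (exact permutation p = 0.489, adjusted 0.489). On the first principal component of these 12 libraries, computed on the 2000 most variable IDs and holding 27.0% of their variance, the birth libraries scored from -31.4 to -15.2 and the weaning libraries from 13.4 to 41.8. The ages did not overlap on this axis, and they overlapped on the next component, which held 21.7%.

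Between birth and weaning 991 of 15693 IDs changed in the heat-stressed calves, 6.31% of those tested. Of these, 416 rose (2.65% of IDs tested) and 575 fell (3.66%). A change counted where the p-value of edgeR's quasi-likelihood test, adjusted by the Benjamini-Hochberg method over all IDs tested, was under 0.05. The number called was 624 without calf 8 at birth and 653 without calf 29 at weaning. The number that rose was 257 without calf 1, 236 without calf 8 and 269 without calf 28, and the number that fell was 371 without calf 29. Without the 3 libraries that detected the fewest IDs (calf 4 at birth, calves 28 and 31 at weaning), 334 were called, 143 higher and 191 lower. Some other models called more. The number was 1800 (841 higher, 959 lower) in limma-voom with sample quality weights and 1559 (708 higher) in edgeR with 1 surrogate variable. Others called fewer, with 688 in edgeR on the 12 heat-stressed libraries alone and 813 in limma-voom without weights.

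Over all abundances, the median change of the IDs that fell was larger than that of the IDs that rose. The median log2 change was 0.74 for those that rose, with quartiles of 0.49 and 1.29, and -1.12 for those that fell, with quartiles of 0.71 and 1.64 in size. Over all IDs tested the median was 0.01 and the median size 0.21. A change of at least 2-fold was measured for 477 called IDs (3.04% of IDs tested), which were 37.0% of those that rose and 56.2% of those that fell. Small changes made up more of the rise, since 108 of 416 higher IDs but 58 of 575 lower IDs changed by less than 0.5 on the log2 scale. At the other end, 16 higher and 25 lower IDs changed by 3 or more. The standard errors differed with the direction as well, with a median of 0.18 for higher and 0.26 for lower IDs. The higher IDs were from 35.3% to 41.98% of the calls under the 4 scalings used.

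The IDs that rose were more abundant than the IDs that fell. Levels are given as CPM, the usual unit of counts relative to library size, after scaling by the trimmed mean of M-values (TMM), and IDs were ranked by their mean CPM over the 12 libraries. Among the 5231 least abundant IDs tested (mean under 9.61 CPM) 232 fell and 97 rose. Among the 5231 of middle abundance 203 fell and 130 rose. Among the 5231 most abundant (from 43.4 CPM) the order was the other way, with 140 lower and 189 higher. The share of IDs called was almost the same at each level, at 6.29%, 6.37% and 6.29%. The median level of the IDs that fell was 13.2 CPM, that of the IDs that rose was 38.3 CPM, and that of all IDs tested was 22.2 CPM. CPM is not corrected for gene length, so these ranks compare counts and not molecules.

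**Figure D1:**
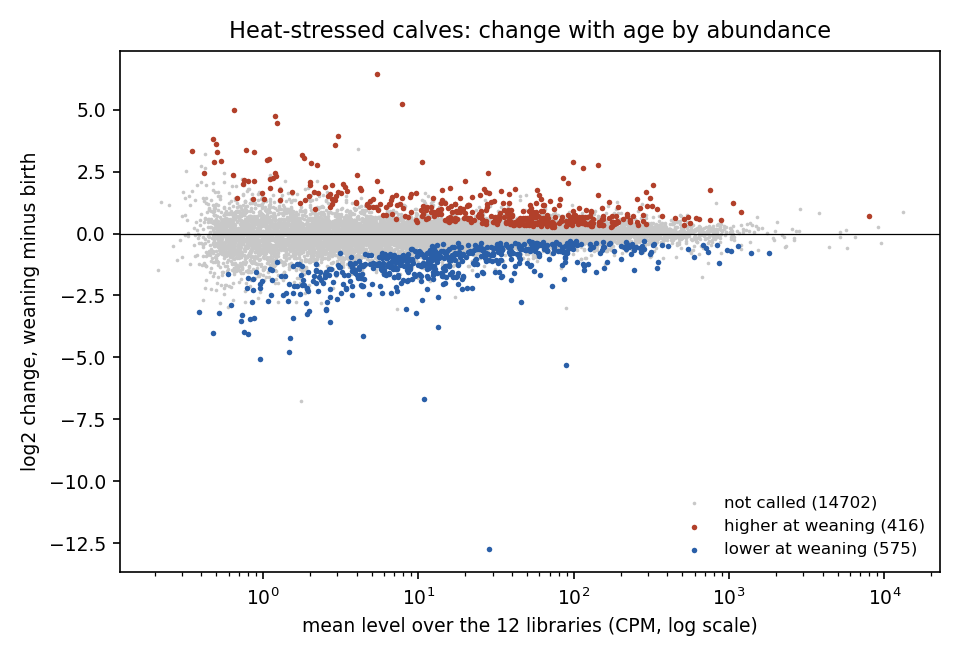
Log2 change from birth to weaning in heat-stressed calves (vertical axis) against the mean level over the 12 libraries in CPM (horizontal axis, log scale), 1 point per ID. The 416 higher IDs (red) lie further to the right than the 575 lower IDs (blue), with median levels of 38.3 and 13.2 CPM, and called changes are larger among less abundant IDs.

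Large changes were mostly changes of IDs at low abundance. The median size of the called changes was 1.61 among the least abundant IDs, 0.87 in the middle and 0.58 among the most abundant. Among the least abundant IDs the rises were the larger ones, with medians of 1.65 for 97 higher and 1.55 for 232 lower IDs, and 88 and 202 of them changed at least 2-fold. The medians were 0.76 and 0.94 in the middle set and 0.57 and 0.61 in the most abundant set, so within a set the directions lay closer together than over all abundances. The standard errors of the same calls had medians of 0.39, 0.21 and 0.14, so smaller changes could be detected among abundant IDs than among scarce ones. Of the 477 called IDs with at least a 2-fold change, 290 were in the least abundant set, 130 in the middle set and 57 in the most abundant set. At the age with the lower level, 41 of the 416 higher IDs and 70 of the 575 lower IDs had a mean under 1 CPM. A fold change of such IDs rests on few reads. At least 1 CPM on average at both ages was found for 375 higher and 505 lower IDs, and among them 113 and 253 changed at least 2-fold, so that falls outnumbered rises at this size there too.

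The 1000 and the 100 most abundant IDs were called at somewhat higher rates than all IDs, a difference that was not tested. Of the 100 most abundant IDs 11% were called, and of the 1000 most abundant 39 rose and 38 fell, which was 7.70% against 6.31% of all IDs tested. Their called changes were small, with a median size of 0.64 for those 1000. The 416 IDs that rose made up 3.07% ± 0.189 of the library at birth and 5.00% ± 0.231 at weaning, and the 575 that fell took 4.08% ± 0.314 and 2.36% ± 0.150 (SD, n = 6). These shares describe IDs picked by the test and add no support to it. In cooled calves, which entered the model through its filter and dispersions but not the contrast that chose the IDs, the same 416 IDs took 3.24% ± 0.271 and 5.02% ± 0.307, and the same 575 took 3.94% ± 0.189 and 2.42% ± 0.0466.

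The 2 ages were fully separated for some of the called IDs. Every weaning library lay above or below every birth library for 375 of the 991 called IDs, 190 higher and 185 lower, where 462 of all 15693 IDs tested (2.94%) were separated in this way. These were 45.7% of the IDs that rose and 32.2% of those that fell, a difference that was not tested. The median standard deviation was larger at birth than at weaning in both lists, and larger for the lower IDs at both ages. In log2 CPM it was 0.47 at birth and 0.40 at weaning for the lower IDs, and 0.31 and 0.27 for the higher IDs. Over all IDs tested these medians were 0.35 and 0.33. Separated IDs were most frequent among the abundant IDs that rose, at 99 of 189. Over all IDs tested, 3.08% of the least abundant set, 2.49% of the middle set and 3.27% of the most abundant set were separated. The distance between the nearest libraries of the 2 ages was small for most of the separated calls, with a median of 0.17 on the log2 scale, and it reached 1 or more for 9 IDs. Without calf 5 at birth, 699 of the 1281 IDs then called and also tested with all calves (54.6%) and 5.55% of all IDs tested were separated. Without each of the other 11 calves the shares were 47.6% to 55.3% of the called IDs and 3.27% to 4.24% of all, with 5 libraries against 6 in every case.

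Where the ages overlapped, the overlap was slight for most called IDs. Of the 616 overlapping IDs, 460 had the order of the call in 33 to 35 of the 36 pairs of 1 birth and 1 weaning library, 145 in 30 to 32 pairs and 11 in fewer. Of all 15231 overlapping IDs tested, 1027 had the order of their change in 33 to 35 pairs, 1737 in 30 to 32 and 12467 in fewer. The call was made on the same libraries and itself favours a slight overlap. For 511 of the 616, leaving out 1 calf removed the overlap, and for 160 of these either of 2 calves did. This was not counted over all IDs tested. Calf 5 at birth was such a calf for 205 IDs, and the other 11 calves for 21 to 76 IDs each.

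Of the IDs that rose, ENSBTAG00000006769 changed by the most in mean CPM and ENSBTAG00000001143 had the widest distance between the ages, among IDs with a mean of at least 1 CPM and at most 50% of the summed level in any library. ENSBTAG00000006769 was the fourth most abundant of all IDs tested. At birth its level was 5604 CPM in calf 1, 6176 in calf 2, 6420 in calf 4, 6018 in calf 5, 5946 in calf 7 and 6076 in calf 8. At weaning it was 7665 CPM in calf 18, 8731 in calf 23, 9590 in calf 25, 10095 in calf 28, 11441 in calf 29 and 11299 in calf 31. The birth calves lay close together, the weaning calves were more spread, and the ages did not overlap. The mean rose from 6040 ± 270 to 9803 ± 1468 CPM (SD, n = 6), a log2 change of 0.70 ± 0.17 (SE; edgeR adjusted p = 0.0131). Over the leave-outs of 1 calf the adjusted p ranged from 0.0116 to 0.0345, and without the 3 libraries with the fewest IDs detected the ID was no longer called (log2 0.64, adjusted p = 0.0869). In cooled calves its level was 6657 ± 1542 CPM at birth and 9646 ± 2871 CPM at weaning with overlapping ages (log2 0.54 ± 0.17, adjusted p = 0.0363).

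ENSBTAG00000001143 was scarce at birth. It had 1, 2, 11, 5, 14 and 8 counts in calves 1, 2, 4, 5, 7 and 8, and 69, 50, 60, 105, 98 and 61 counts in calves 18, 23, 25, 28, 29 and 31 at weaning. The highest birth calf stood at 0.977 CPM and the lowest weaning calf at 3.76 CPM, so the ages were far apart. The mean went from 0.437 ± 0.340 to 5.41 ± 2.12 CPM (log2 3.59 ± 0.53, edgeR adjusted p = 0.000386). In cooled calves it rose from 0.532 ± 0.407 to 12.99 ± 9.89 CPM, again without overlap (log2 4.60 ± 0.53), and the difference between the changes of the 2 treatments, -1.01 ± 0.73 on the log2 scale, missed the threshold (edgeR adjusted p = 0.942).

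The IDs chosen in the same way among those that fell were ENSBTAG00000012586 and ENSBTAG00000016171. ENSBTAG00000012586 measured 2410 CPM in calf 1 at birth, 2345 in calf 2, 2887 in calf 4, 1373 in calf 5, 2256 in calf 7 and 2448 in calf 8. At weaning it measured 1060 CPM in calf 18, 1458 in calf 23, 1339 in calf 25, 1220 in calf 28, 1202 in calf 29 and 1764 in calf 31. Calf 5 stood inside the weaning range, and every other birth calf stood above it. The mean fell from 2286 ± 498 to 1340 ± 247 CPM (log2 -0.77 ± 0.16, edgeR adjusted p = 0.00478), and without calf 5 the log2 change was -0.88 (adjusted p = 0.000514). In cooled calves the level fell from 2551 ± 451 to 1292 ± 185 CPM and the ages did not overlap (log2 -0.98 ± 0.16, adjusted p = 0.000215).

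ENSBTAG00000016171 nearly disappeared by weaning. Its level at birth was 25.4 CPM in calf 1, 36.6 in calf 2, 10.7 in calf 4, 39.1 in calf 5, 17.1 in calf 7 and 21.5 in calf 8. At weaning it was 3.09 CPM in calf 18, 2.48 in calf 23, 0.883 in calf 25, 2.90 in calf 28, 1.07 in calf 29 and 0.492 in calf 31. Calf 5 had the highest level of the birth calves here, on the far side from weaning, and the ages did not overlap. The mean fell from 25.1 ± 11.1 to 1.82 ± 1.13 CPM (log2 -3.79 ± 0.52, edgeR adjusted p = 0.000215). The fall in cooled calves was of the same size, from 25.4 ± 16.1 to 1.84 ± 0.793 CPM, with an interaction of -0.02 ± 0.67 on the log2 scale (edgeR adjusted p = 0.9999).

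**Figure D2:**
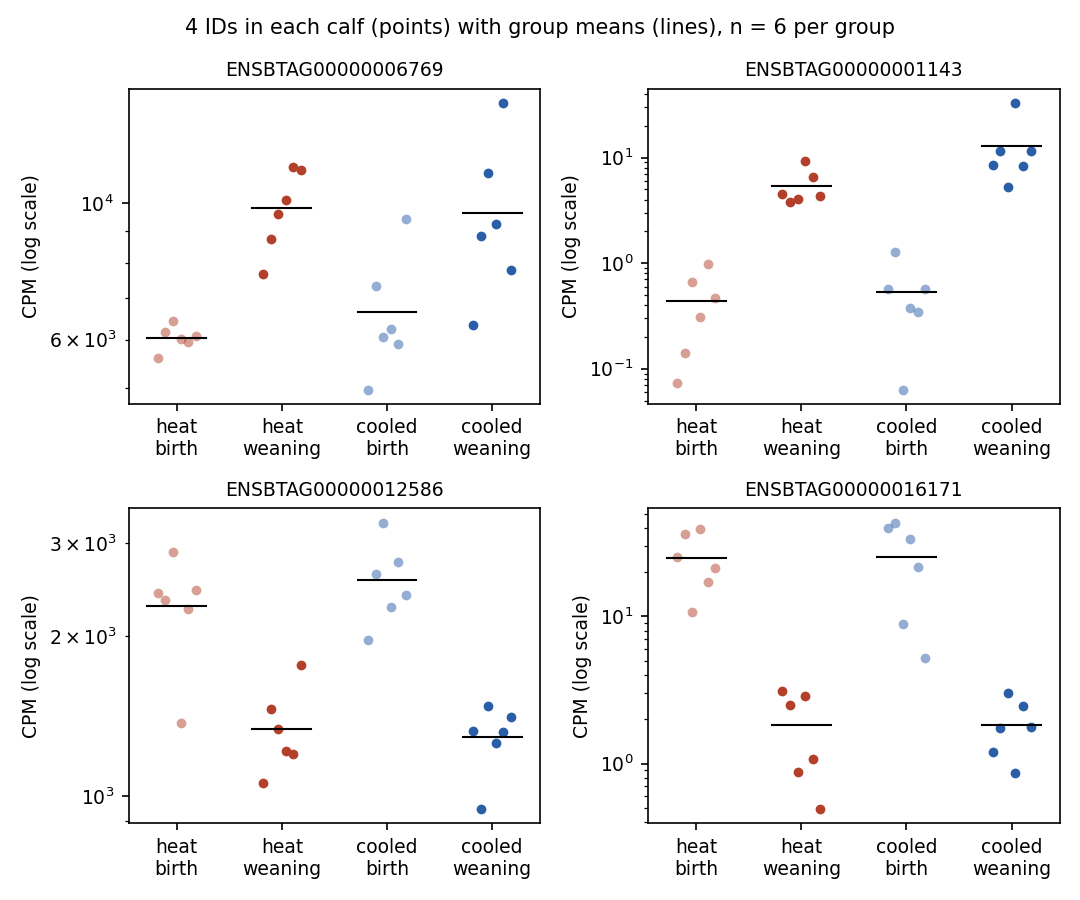
Level of 4 IDs in CPM (vertical axes, log scale) in each calf of the 4 groups, with points for calves and lines for group means (n = 6 per group). ENSBTAG00000012586 shows 1 heat-stressed birth calf, calf 5 at 1373 CPM, inside the weaning range, while the other panels show heat-stressed ages that do not overlap.

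One called ID, ENSBTAG00000038748, had no count in any of the 6 weaning libraries; it was singled out after its values were seen. At birth it had 85 counts in calf 1, 222 in calf 2, 5002 in calf 4, 153 in calf 5, 89 in calf 7 and 48 in calf 8. Calf 4 thus held 88.1% of the summed birth level, and its 299.8 CPM compared with 2.78 to 15.8 CPM in the other birth calves. Against a floor of 3 counts over the weaning group, the level at weaning was at least 1694-fold lower with calf 4 and at least 220-fold lower without it. It was called with all calves (edgeR adjusted p = 0.00108), without calf 4 (1.29e-05) and in each of the other leave-outs (up to 0.00312). In cooled calves it had 32 to 221 counts at birth and 1 count in 1 of the 6 weaning libraries.

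The influence of single calves on the list was uneven. With each heat-stressed calf left out in turn, from 613 (without calf 8 at birth) to 888 (without calf 5 at birth) of the 991 IDs were still called, and none of the 991 changed sign in any of the 12 fits. Leaving out 11 of the 12 calves lowered the number of calls, to between 624 and 881. Leaving out calf 5 at birth raised it to 1285, with 397 IDs that had not been called before. The median edgeR adjusted p of the IDs that were no longer called lay between 0.0623 and 0.0743 in each fit. The highest was 0.392 without calf 4 at birth and from 0.109 to 0.197 in the other fits. Each of these fits had 1 library fewer than the fit with all calves. The other libraries were those that chose the 991 IDs, so a change of sign was unlikely from the start.

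**Figure D3:**
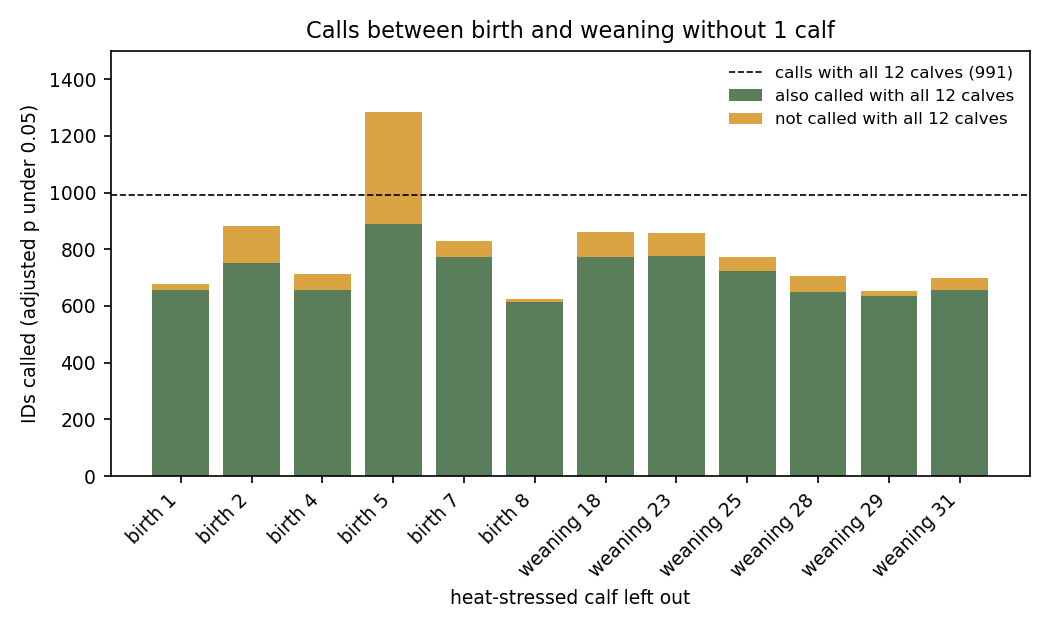
Number of IDs called between birth and weaning (vertical axis) with each heat-stressed calf left out (horizontal axis), divided into IDs also called with all calves (green) and others (yellow). The bar without calf 5 at birth, at 1285, is the only one of 12 above the dashed line at 991, and the lowest bars are those without calf 8 at birth (624) and calf 29 at weaning (653).

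A smaller set of 461 IDs, 181 higher and 280 lower, was called in all 12 leave-outs, while 331 of the 991 lost the call in 6 or more of them. The 461 IDs had larger changes than the remaining 530, with median sizes of 1.19 and 0.77, and similar levels, with medians of 17.8 and 21.4 CPM. The ages did not overlap for 259 of the 461 (56.2%) and for 116 of the 530 (21.9%). All 461 had an adjusted p of at most 0.0229 with all calves, so these IDs are in the main those with the smallest p. In cooled calves 345 of the 461 (74.8%) and 266 of the 530 (50.2%) changed in the same direction past the threshold, where 12% of all IDs tested were called in cooled calves in either direction.

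Over IDs called between the ages, calf 5 at birth lay nearer to the weaning calves than any other birth calf. For each calf, its level was placed on a scale from the mean of the other calves of its own age to the mean of the other age, over IDs called in the fit without that calf. Calf 5 stood at a median of 62.2% of the way to weaning over 1281 IDs (quartiles 15.7% and 102%). Of these IDs 393 were called only without calf 5, where the other calves had 8 to 123 such IDs each. The sets of IDs therefore differ between calves, and the part of this choice in the position of calf 5 was not tested. The other birth calves had medians of -0.500% (calf 1), 16.0% (calf 2), 6.95% (calf 4), 19.9% (calf 7) and -3.15% (calf 8). The weaning calves stood from 4.87% (calf 31) to 25.01% (calf 18) of the way to birth. For 405 of the 991 called IDs calf 5 was the birth calf nearest to the weaning levels, against 82 to 144 IDs for each other birth calf. Its shift was seen in both directions, with medians of 57.3% over IDs that rose and 65.9% over IDs that fell.

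The position of calf 5 was also measured on a scale set by the cooled calves alone, from their birth mean to their weaning mean over the 1876 IDs called between their ages. On this scale calf 5 stood at a median of 42.3%, calf 2 at 26.4%, calf 7 at 14.5% and the other birth calves between -2.05% and 2.68%. The weaning calves stood between 71.4% and 84.1%. The IDs were chosen for their change in the cooled calves that set the scale, so the order of the calves is read from it and the distance from 0 or 100% is not. Of the birth calves, calf 5 stood nearest to the weaning calves on both scales. On the first principal component, however, calves 1 (-23.9), 4 (-20.9) and 7 (-15.2) stood nearer to the weaning calves. Calf 5 scored -26.0 there, inside the range of the birth calves. Its library had 14990966 counts and 18983 detected IDs, the most of any birth library and within the range of the weaning libraries (17167 to 19010), and the part of this number in the position of the calf was not tested.

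**Figure D4:**
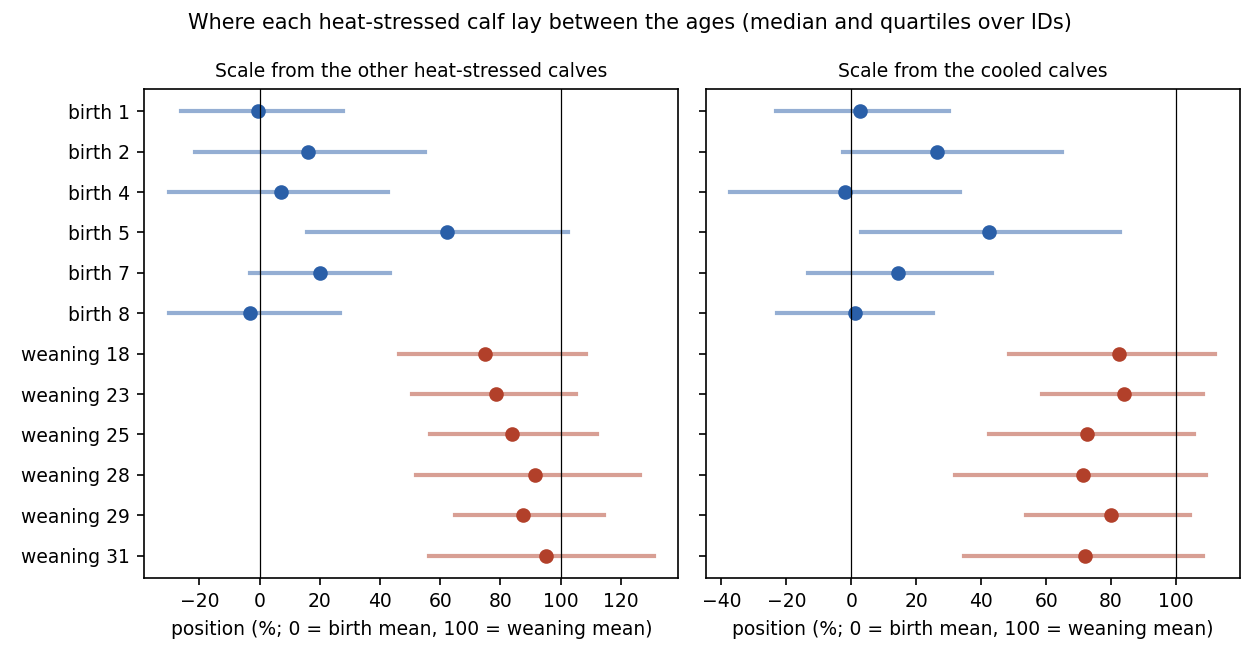
Median position of each heat-stressed calf (points, with lines for the quartiles over IDs) on a scale where 0 is the birth mean and 100% the weaning mean, set by the other heat-stressed calves (left) or by the cooled calves (right). Calf 5 at birth, at 62.2% and 42.3%, stands nearest to weaning of the birth calves in both panels.

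The libraries that detected the fewest IDs were calf 28 at weaning (17167), calf 4 at birth (17523) and calf 31 at weaning (17709), and the other 9 detected 18264 to 19010. Among called IDs, at the age with the higher level, these 3 libraries were the highest more often than others of their age. Calves 28 and 31 were the highest weaning calves for 120 and 101 of the 416 IDs that rose, together 221 (53.1%). Calf 4 was the highest birth calf for 184 of the 575 that fell (32%). An even share would be 16.7% per calf. How often these 3 libraries were the highest over all IDs tested was not counted. They also lay far from the other calves of their age over all IDs tested, with root mean square differences of 0.70, 0.74 and 0.71 in log2 CPM, as did calf 5 at 0.70, against 0.46 to 0.60 for the remaining 8. Without the 3 libraries, 303 of the 991 IDs were still called, 31 others were added and none of the 991 changed sign. That fit had 5 birth and 4 weaning calves, all among those that chose the 991 IDs, so a change of sign was unlikely here too. The part of the number of IDs detected in the calls was not tested.

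The change in heat-stressed calves was set beside that in cooled calves. The libraries of the contrasts are separate, but both were tested in 1 model with shared dispersions and a shared filter, so the lists of calls are not independent. Of the 416 IDs that rose, 409 had the same sign in cooled calves, and of the 575 that fell 563 did, together 98.1% against 71.6% of all IDs tested. The median log2 changes of these lists in cooled calves were 0.62 and -0.90, smaller than the 0.74 and -1.12 in the heat-stressed calves by which they were chosen, and 369 of the 991 IDs had a larger change of the same sign in cooled calves. The IDs called in the same direction in both were 61.7% of the heat-stressed list and 32.6% of the cooled list, which held 12% of the IDs tested.

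For the remaining 380 IDs the call was made in heat-stressed calves and not in cooled calves. The test of the difference between the 2 changes passed for 0 of 15693 IDs (0%) in edgeR, with a smallest adjusted p of 0.893 and 872 IDs (5.56%) at an unadjusted p under 0.05. DESeq2 passed 1 ID, ENSBTAG00000040367, and limma-voom 0, with 966 and 800 IDs at an unadjusted p under 0.05. No ID is therefore shown by edgeR to change with age in heat-stressed calves by more or less than in cooled calves. Of the 163 higher IDs among the 380, 156 had the same sign in cooled calves, with medians of 0.60 in heat-stressed and 0.30 in cooled calves. Of the 217 lower IDs 205 had the same sign, with medians of -1.06 and -0.47. At an unadjusted p under 0.05 in edgeR, 83 of the 163 and 99 of the 217 changed in the same direction in cooled calves. The share of all IDs tested that did so was not counted, so these counts have no background here. The difference between the 2 changes had an unadjusted p under 0.05 in edgeR for 33 of the 163 and 57 of the 217. Over all IDs tested this share was 5.56%. The 380 IDs were chosen by a call in heat-stressed calves only, which itself favours a difference.

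**Figure D5:**
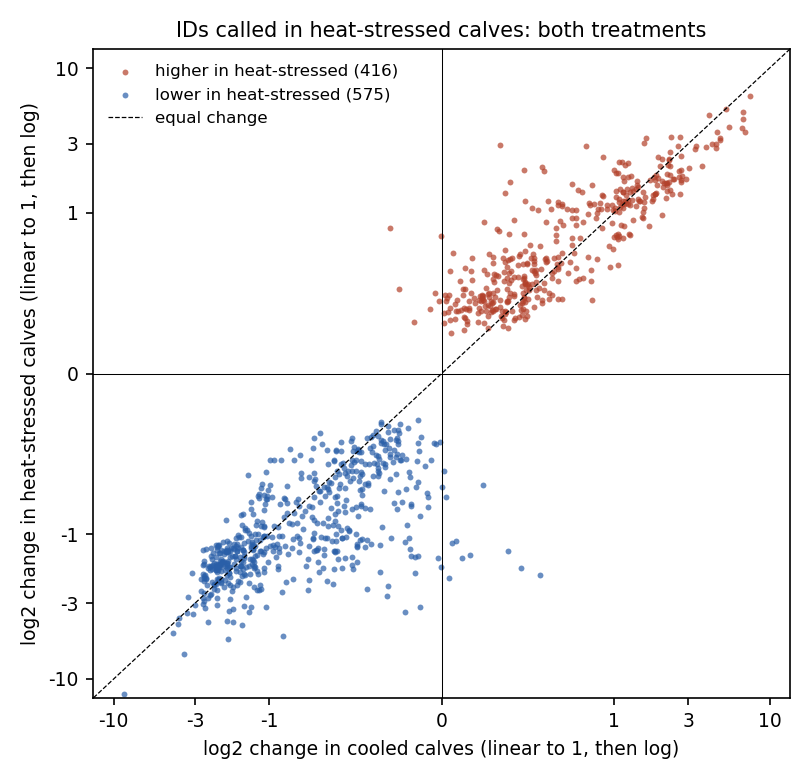
Log2 change from birth to weaning in heat-stressed calves (vertical axis) against that in cooled calves (horizontal axis) for the 991 IDs called in heat-stressed calves, on axes linear to 1 and logarithmic beyond. Of the 991, 972 lie in the quadrants of equal sign, and 369 changed in that direction by more in cooled calves than in the heat-stressed calves whose change chose the IDs.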

How the data were processed

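The authors deposited raw read counts for 27570 Ensembl bovine gene IDs, 1 table per calf. Per the submitters' processing notes, the tools were HISAT2, HTSeq, Trim Galore 0.4.4 and FastQC 0.11.7, and the build was ARS-UCD1.2. The annotation release and the strand setting are not given in the sources used here, so reads of overlapping, antisense or near-identical genes may be shared between IDs. Total RNA had been extracted with TRIzol, per the labels' protocols.

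IDs were kept by filterByExpr (minimum count 10, minimum total 15), which left 15693, and libraries were scaled by TMM. A quasi-likelihood model of edgeR 4.0.16 (R 4.3.3) was fitted to all 24 libraries with a mean per group, robust dispersion and robust prior, and p-values were adjusted over all IDs tested. The common biological coefficient of variation was 0.295. Log2 CPM used a prior count of 2. Alternatives used DESeq2 1.42.0, limma 3.58.1 and sva 3.50.0, and plots matplotlib 3.10.9. The fit was checked on generated counts with planted changes. No pair of the 12 libraries (66 pairs) had a chi-square under 15.3 per degree of freedom. Such a check can find copied counts and cannot tell whether 2 libraries came from 1 gland. Each library was counted as 1 replicate.

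The comparison, the lists and the rules were chosen with earlier results of these data known. Named IDs were, per direction, the one with the largest change in mean CPM and the one with the widest distance in log2 CPM between the nearest libraries of the ages, among called IDs with a mean of at least 1 CPM and no library over 50% of their summed CPM. The RefSeq table of 37063 bovine genes at hand matched 0 of the IDs, so the planned gene lists and cell type markers were not used.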

Additional observations from a re-analysis of the deposited data

Results flagged for a closer look

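Dixon's test was applied to 38 sets of 6 calves and set 4 values apart, where chance sets apart about 1 in 20 (1.90 here). Calf 5 at birth was the birth calf nearest to the weaning levels for 405 called IDs, with 82 to 144 for the other birth calves. Its median position between the ages was 62.2%, with -3.15% to 19.9% for the others, each over the IDs called without that calf. The 405 IDs and the 62.2% describe the same shift. Heat-stressed calf 28, sampled at weaning, had a score of 44.0 on the third component of the 12 heat-stressed libraries, which held 10.3% of the variance, where the other weaning calves scored from -19.0 to -5.30. ENSBTAG00000001143 stood at 32.6 CPM in cooled calf 19 at weaning, with 5.31 to 11.6 CPM in the other cooled calves of that age.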

How the results depend on the processing

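Of the 991 calls, 416 higher and 575 lower, the fit of the 12 heat-stressed libraries alone gave 688, with 260 higher. DESeq2 gave 1458, with 884 lower, and passed 1 ID for the difference from cooled calves, where edgeR and limma-voom passed 0. With sample quality weights limma-voom called 1800 (841 higher, 959 lower), and 813 without weights. With 1 surrogate variable edgeR called 1559, 708 of them higher. Leaving out each heat-stressed calf in turn gave 624 to 1285 calls, 236 to 572 higher, 371 to 713 lower, 354 to 552 with at least a 2-fold change, and 322 to 699 called IDs without overlap, against 375. Without the 3 libraries with the fewest IDs detected, an alternative added after the data were seen, there were 334 calls, 143 higher, 191 lower and 206 with at least a 2-fold change, against 477. Other scalings, thinning to 12261651 counts, no low-count filter and a mean of at least 1 CPM gave 784 to 983 calls. The cause of these shifts was not tested. Of the 4 IDs named by rule, 3 kept their direction and call in all 24 alternatives, and ENSBTAG00000006769 in 23. The differences in the shares of the 10 and 100 most abundant IDs, 0.440 and 0.569 percentage points, fell short of the threshold with all calves and in all 12 leave-outs, where they ranged from 0.219 to 0.660 and from 0.0330 to 0.910, both lowest without calf 28 at weaning. No paired analysis was possible because the birth and weaning groups share no replicate number. IDs under the low-count filter were not tested.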

Other observations

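Of the 462 IDs whose ages did not overlap, 87 were not called, 51 with weaning higher and 36 with weaning lower. Their median change was 0.48 on the log2 scale and their median edgeR adjusted p was 0.0989. In cooled calves 857 of the 15693 IDs tested (5.46%) had ages that did not overlap, and 129 of the 375 called and separated IDs of the heat-stressed calves were separated in the same direction in cooled calves too. At an adjusted p under 0.001 the heat-stressed calves had 42 IDs, 19 higher and 23 lower, at 0.01 they had 289, and at 0.1 they had 1613.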
